A study of Mus musculus with 12 samples.

Results

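Wnt ligands are secreted, lipid-modified glycoproteins that act on nearby cells. They are acylated by Porcupine and carried out of the cell by Wntless. At the target cell they bind Frizzled receptors with the coreceptors Lrp5 or Lrp6, which leads to stabilisation of β-catenin, or Frizzled with Ror or Ryk receptors, which feeds planar polarity and calcium branches. Secreted frizzled-related proteins (Sfrp) carry a Frizzled-like cysteine-rich domain, bind Wnt ligands outside the cell and are known as antagonists. Fibroblasts of the embryo make both ligands and antagonists, and Wnt signalling is a known modulator of the conversion of fibroblasts into induced pluripotent stem cells.

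The 10 genes described here are 8 ligands, Wnt2, Wnt4, Wnt5a, Wnt5b, Wnt9a, Wnt10b, Wnt11 and Wnt16, and the antagonists Sfrp1 and Sfrp2. They were 10 of the 55573 genes in the count table, taken by their Ensembl identifiers, and all 10 passed the filter on low counts that left 19174 genes. They were selected on the measured counts of these libraries, in which an increase of Wnt2 under factor induction had been seen, so the comparison of induced with uninduced cells was used in choosing them and is given for these genes as a description without a test. The comparisons of cells with and without vitamin B12 were not part of that choice and were tested.

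The cells were i4F MEFs, fibroblasts of the connective tissue that were cultured from C57BL/6 mouse embryos at E13.5, and all groups carried a cassette of Oct4, Sox2, Klf4 and cMyc (OSKM) that doxycycline switches on. The groups were MEF, without doxycycline or added B12; MEF+B12, with 2 µM vitamin B12; OSKM, with doxycycline at 1 µg/ml per the labels; and OSKM+B12, with both, all in the medium used for pluripotent cells and collected after 72 h. Each group held 3 libraries of poly(A) RNA, 1 from each of clones 1, 2 and 3, with 56971244 to 79236795 counts per library. The doxycycline concentration in the study's methods differs from that of the labels. Only induced cells received doxycycline, so effects of the drug and of the factors cannot be told apart. The titles of the clone 1 libraries name a later year than the rest, so clone and year cannot be told apart either.

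Fibroblast transcripts dominated all libraries, with 11 marker genes summing to 85490 to 137000 CPM (read pairs per 1e+06 counted, after TMM correction of the totals). Of the 4 factor genes, Pou5f1, Sox2 and Myc were higher in OSKM than in MEF in all clones, with the smallest rise in clone 3, and Klf4 was not. Klf4 was at 139, 143 and 124 CPM in MEF and at 121, 122 and 119 CPM in OSKM for clones 1, 2 and 3. Sox2 was at 15.5, 13.3 and 2.33 CPM in OSKM and Myc at 53.4, 44 and 20 CPM, against 22.5, 16.4 and 18.6 CPM for Myc in MEF. Pou5f1, which encodes Oct4, had 19.3 and 18.5 CPM in OSKM cells of clones 1 and 2 and 2.86 CPM in those of clone 3, against at most 0.468 CPM in uninduced cells. Xist was at 0.0147 to 0.0289 CPM in clone 1 and at 219 to 350 CPM in clones 2 and 3. The OSKM library of clone 1 stood apart in its pseudogenes, whose log2 difference from its 3 sister libraries varied with an SD of 0.510 over 1519 pseudogenes, against 0.103 to 0.226 in the other 11 libraries. In bulk RNA, fewer cells of a type and less RNA per cell cannot be told apart.

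The sequences just upstream of 3 members are shown because these genes had the largest fitted differences between OSKM and MEF among the members with a RefSeq promoter entry and over 100 counts in all libraries. RefSeq (GRCm38.p6) held entries for 8 of the 10 members. Each run ends at the base before the first annotated start, and capitals mark a match to any of 5 motifs searched on both strands, the octamer ATGCAAAT bound by Oct4, the SOX motif ACAATGG, the KLF motif CCACCC, the E-box CACGTG bound by Myc and the TCF/LEF motif ATCAAAG.
Wnt2, chr6:18030586-18030695, minus strand: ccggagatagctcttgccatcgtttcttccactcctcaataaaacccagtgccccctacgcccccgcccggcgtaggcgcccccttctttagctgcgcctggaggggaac
Wnt4, chr4:137277385-137277488, plus strand: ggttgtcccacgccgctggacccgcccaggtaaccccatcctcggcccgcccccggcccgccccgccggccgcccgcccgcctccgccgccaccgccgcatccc
Sfrp2, chr3:83766071-83766320, plus strand: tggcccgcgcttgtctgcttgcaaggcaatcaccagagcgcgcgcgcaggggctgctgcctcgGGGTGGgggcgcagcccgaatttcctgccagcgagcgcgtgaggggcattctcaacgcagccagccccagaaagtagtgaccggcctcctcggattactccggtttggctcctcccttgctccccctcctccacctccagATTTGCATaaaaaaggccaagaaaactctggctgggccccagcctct
The Sfrp2 run held an octamer in its reverse orientation and a KLF match. The Wnt2 and Wnt4 runs held none of the 5 motifs, nor did their 300-base windows, which reach from 250 bases before to 50 bases after the RefSeq start. In the same windows of all 32544 promoters, 1.75% held the octamer, 3.68% the SOX motif, 31.6% the KLF motif, 7.17% the E-box and 3.73% the TCF/LEF motif. Among the other members, the Wnt9a window held an E-box, the Wnt10b window 4 KLF matches, Wnt5b windows KLF and TCF/LEF matches, and a Wnt11 window a KLF and a TCF/LEF match. These matches describe letters in the windows, and binding was not measured.

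The antagonists were far more abundant per length than any ligand. Levels between genes were compared as CPM per kilobase of exon. Sfrp1 (ENSMUSG00000031548, GRCm38 chromosome 8, 23411502 to 23449632, plus strand) had a median of 288.7 CPM per kb over the 12 libraries and a range of 179.8 to 355.4. Sfrp2 (ENSMUSG00000027996, chromosome 3, 83766321 to 83774316, plus strand) had a median of 191.3 and a range of 130.6 to 216.8. The ranges of the antagonists overlapped each other and lay above those of all 8 ligands.

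Wnt16 (ENSMUSG00000029671, chromosome 6, 22288227 to 22298522, plus strand) and Wnt5a (ENSMUSG00000021994, chromosome 14, 28504750 to 28527448, plus strand), a ligand known for the branches that do not use β-catenin, led the ligands with medians of 12.7 and 10.6 CPM per kb. They were followed by Wnt9a at 6.54, Wnt2 at 6.26, Wnt4 at 4.01 and Wnt5b at 3.71 CPM per kb. Wnt11 was lower at 1.56, and Wnt10b, an activator of the β-catenin branch, was close to the detection limit at 0.121 CPM per kb with 6 to 43 counts per library. In this order, the ranges of Sfrp1 and Sfrp2, of Wnt16 and Wnt5a, and of each pair of neighbours from Wnt9a to Wnt5b overlapped. The ranges of the neighbours Sfrp2 and Wnt16, Wnt5a and Wnt9a, Wnt5b and Wnt11, and Wnt11 and Wnt10b did not. With the length of the longest transcript in place of the union of exons, Wnt4 and Wnt5b changed places and the other 8 members kept their rank.

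**Figure D1:**
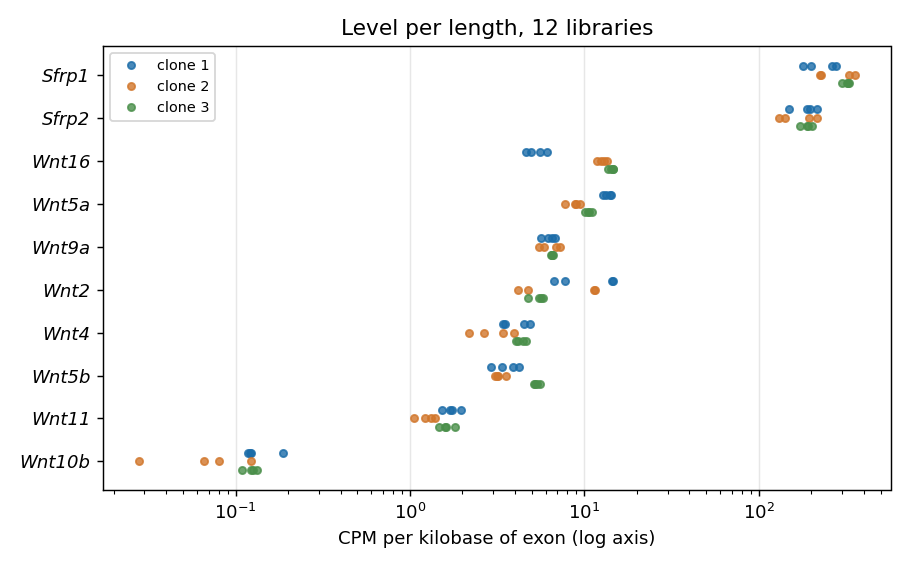
Level of each of the 10 members in CPM per kilobase of exon on a log axis, with 1 point for each of the 12 libraries coloured by clone. Sfrp1 and Sfrp2 sit between 130.6 and 355.4, above all ligands, and Wnt10b is lowest at 0.0279 to 0.188; the points of Wnt16 split by clone.

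Summed over the 8 ligands, the level was 40.9 to 49.3 CPM per kb in MEF and 47.9 to 49.6 in OSKM. The sum of the antagonists was 491 to 572 CPM per kb in MEF and 355 to 511 in OSKM. The ligands made up 6.67% to 8.49% of the summed level of all 10 members in MEF and 8.86% to 11.96% in OSKM. With B12 this share was 6.66% to 8.27% in MEF+B12 and 9.03% to 13.0% in OSKM+B12. The induced and uninduced groups of the same medium did not overlap in this share, though the induced libraries of clone 3 were the lowest of their groups. This share includes the rise of Wnt2 that was known when the genes were chosen, so it is a description only. Wnt2 was 11.2% to 17.3% of the ligand sum in MEF and 11.6% to 30.5% in OSKM.

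Wnt2 (ENSMUSG00000010797, GRCm38 chromosome 6, 17988940 to 18030585, minus strand) is a ligand of the β-catenin branch that is made by mesenchyme, for example in the developing lung. It was at 17.4, 10.7 and 12.4 CPM in the MEF libraries of clones 1, 2 and 3, and at 33.0, 25.9 and 13.0 CPM in the OSKM libraries. With B12 it was at 15.2, 9.38 and 10.7 CPM in MEF+B12 and at 32.6, 25.6 and 12.7 CPM in OSKM+B12. The induced libraries of clones 1 and 2 were higher than all uninduced libraries, while clone 3 stayed within the uninduced range in both media. Within clones 1, 2 and 3, the log2 difference between OSKM and MEF was 0.92, 1.27 and 0.066, and with B12 it was 1.10, 1.44 and 0.24. Fitted over the 3 clones the log2 fold change was 0.76 ± 0.22 (standard error) without B12 and 0.94 ± 0.22 with B12. Leaving out clone 1, 2 or 3 gave 0.67, 0.51 and 1.09 without B12 and 0.85, 0.69 and 1.26 with B12.

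**Figure D2:**
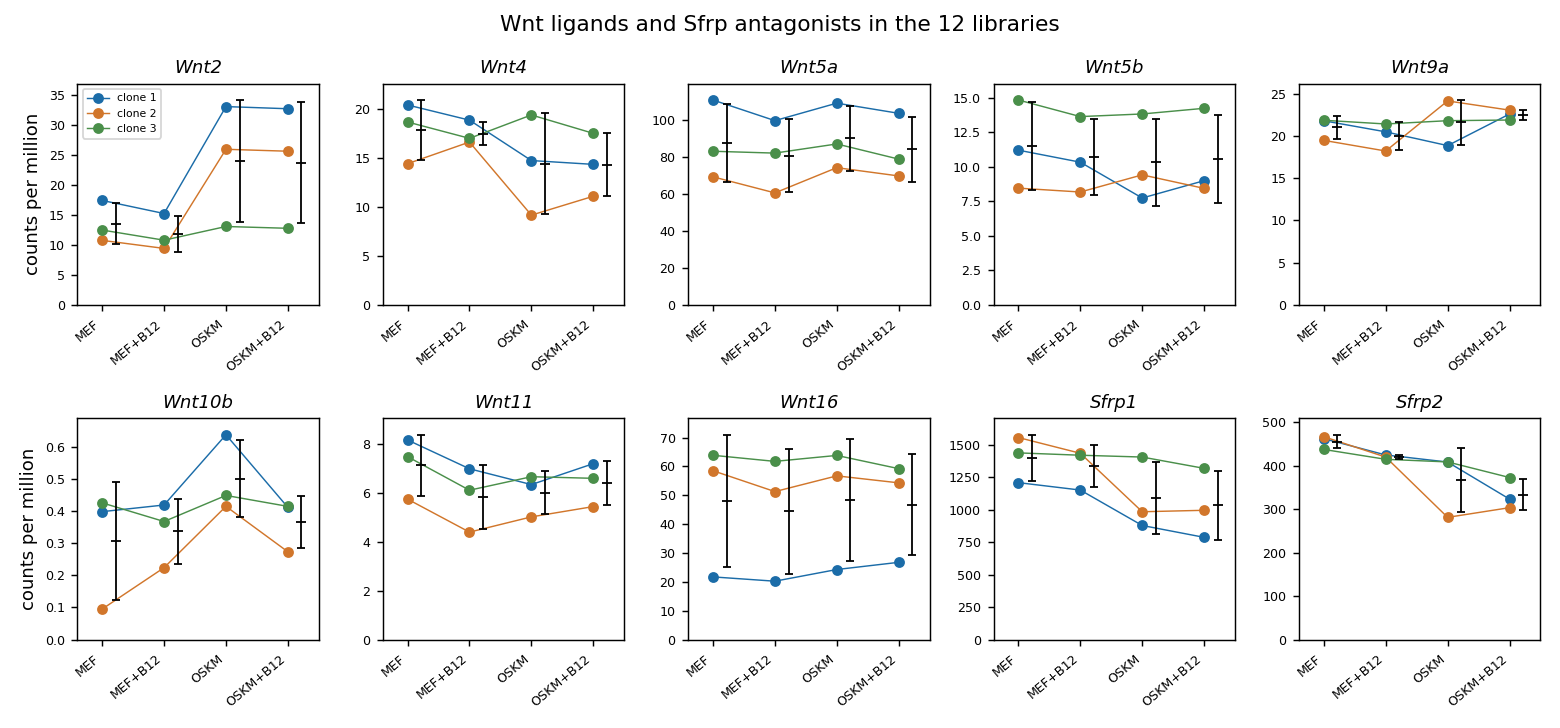
CPM of the 10 members in the 12 libraries, a panel per gene with the y axis from 0; coloured points and lines are clones 1 to 3 across the groups, and the black marks are the mean and SD of the 3 libraries of a group. Wnt2 is higher in clones 1 and 2 once induced and stays near 13 CPM in clone 3, and Wnt16 lies at 20.2 to 26.7 CPM in clone 1 and at 51.3 to 63.8 CPM in the others.

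The antagonists were lower in induced cells in all 6 within-clone comparisons, and their difference was likewise smallest in clone 3. Sfrp1 was at 1207, 1554 and 1436 CPM in MEF and at 877, 983 and 1404 CPM in OSKM for clones 1, 2 and 3. With B12 it was at 1150, 1433 and 1418 CPM in MEF+B12 and at 786, 994 and 1317 CPM in OSKM+B12. The induced libraries of clones 1 and 2 were below all uninduced libraries, and those of clone 3 were not. The log2 difference of Sfrp1 was -0.46, -0.66 and -0.032 in clones 1, 2 and 3 without B12, and -0.55, -0.53 and -0.11 with B12. Sfrp2 was at 462, 467 and 437 CPM in MEF and at 408, 281 and 409 CPM in OSKM. In MEF+B12 it was at 425, 420 and 415 CPM, and in OSKM+B12 at 323, 303 and 373 CPM. The Sfrp2 levels of the induced and uninduced groups did not overlap in either medium, with log2 fold changes of -0.33 ± 0.11 without B12 and -0.34 ± 0.11 with B12. The share of all genes whose groups separate in this way was not counted, nor the share lower in all 6 within-clone comparisons. No weight is put on either pattern.

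Wnt4 (ENSMUSG00000036856, chromosome 4, 137277489 to 137299726, plus strand), a ligand known from kidney and ovary development, was lower in induced cells of clones 1 and 2 and not of clone 3. It was at 20.4, 14.4 and 18.7 CPM in MEF and at 14.7, 9.16 and 19.4 CPM in OSKM. With B12 it was at 18.9, 16.6 and 17.0 CPM in MEF+B12 and at 14.3, 11.1 and 17.5 CPM in OSKM+B12. The groups overlapped in both media. The log2 difference in clones 1, 2 and 3 was -0.47, -0.65 and 0.054 without B12 and -0.40, -0.58 and 0.042 with B12.

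The remaining ligands showed small or mixed differences with induction. Wnt11 (ENSMUSG00000015957, chromosome 7, 98835112 to 98855195, plus strand), known for convergent extension movements, was lower in OSKM than in MEF in all 3 clones, by -0.36, -0.19 and -0.17 on the log2 scale, while with B12 the differences were 0.043, 0.31 and 0.11. Wnt5a was fitted at 0.048 ± 0.052 and 0.065 ± 0.052, Wnt9a (ENSMUSG00000000126, chromosome 11, 59306928 to 59333552, plus strand) at 0.036 ± 0.091 and 0.17 ± 0.091, and Wnt16 at 0.033 ± 0.079 and 0.14 ± 0.079 without and with B12. Wnt5b (ENSMUSG00000030170, chromosome 6, 119432531 to 119544347, minus strand) had log2 differences of -0.53, 0.155 and -0.102 in clones 1, 2 and 3 without B12. With B12 they were -0.199, 0.046 and 0.063. The -0.53 rests on the OSKM library of clone 1, which stood apart in its pseudogenes. Wnt9a was the steadiest of the 10, at 18.2 to 24.1 CPM over the 12 libraries with its highest library 1.33 times its lowest, against 3.52 times for Wnt2. Wnt10b (ENSMUSG00000022996, chromosome 15, 98770712 to 98778150, minus strand) was at 0.398, 0.0949 and 0.426 CPM in MEF and at 0.638, 0.415 and 0.449 CPM in OSKM, and its 6 counts in the MEF library of clone 2 gave the lowest value. Its fitted values were 0.75 ± 0.32 without and 0.13 ± 0.32 with B12.

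**Figure D3:**
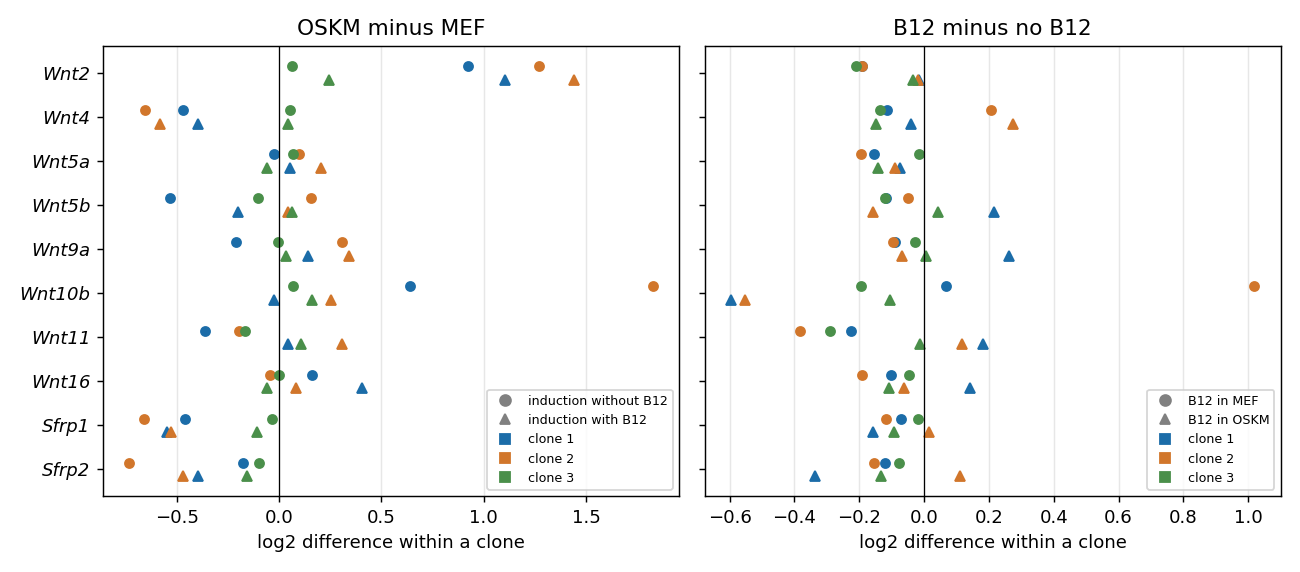
Log2 difference within each clone for the 10 members, with induced minus uninduced cells on the left and cells with B12 minus cells without on the right; symbols give the medium or state and colours the clone. Wnt2 reaches 1.44 in clone 2 and 0.066 to 0.24 in clone 3, Sfrp1 and Sfrp2 lie below 0 on the left in every clone, and most B12 differences lie within 0.3 of 0.

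Several lists of markers of other cell types had different sums in induced and uninduced cells. In either induction comparison of edgeR 0 of the 5 mesothelial, 4 tested endothelial and 3 tested epithelial markers passed the threshold. Of all genes tested only 0.073% and 0.104% did. The response of Msln, Upk3b, Lrrn4, Upk1b, Tek, Cdh5 and Krt8 differed between clones, with adjusted p of 0.00027 to 0.0337 by edgeR. That of Wt1, Kdr, Egfl7, Cdh1 and Krt18 did not pass, and 2.15% of all genes tested did. The 5 mesothelial markers summed to 25.4 to 37.2 CPM in MEF and 31.4 to 65.8 CPM in OSKM, with log2 differences of 1.37, 0.91 and -0.24 in clones 1, 2 and 3. Fitted above 0 were 4 of the 5 without B12 and 5 with B12. Wt1 was the exception, at -0.11 ± 0.16 without B12 and 0.226 with B12. Msln, which codes for the mesothelial surface protein mesothelin, was at 21.4, 20.8 and 6.96 CPM in the OSKM libraries of clones 1, 2 and 3 and at 5.18, 5.41 and 8.78 CPM in MEF. The 8 endothelial markers summed to 44.5 to 48.1 CPM in MEF and 55.3 to 146 CPM in OSKM, nearly all of it Tek, with Pecam1 at no more than 0.279 CPM and Cldn5 and Emcn at no more than 0.0519 CPM anywhere. Without B12, Tek and Cdh5 were fitted at 1.244 and 1.357, and Kdr and Egfl7 at -0.017 and -0.174. The 5 epithelial markers summed to only 0.710 to 1.13 CPM in MEF and 0.769 to 4.36 CPM in OSKM, with log2 differences of 1.61, 2.55 and 0.12 in clones 1, 2 and 3, and Epcam and Cldn4 did not exceed 0.139 and 0.0294 CPM. Krt8 and Cdh1 were fitted at 2.485 and 1.735 without B12, and Krt18 at -0.079. The neural and glial list had log2 differences of -0.59, -0.53 and -0.02 and the skeletal muscle list -0.56, -0.63 and 0. In these 5 lists the difference without B12 was smallest in size in clone 3. The 11 fibroblast markers summed to 114000 to 137000 CPM in MEF and 85490 to 112500 CPM in OSKM. Col1a1, Col1a2 and Col3a1, at 22600 to 45810 CPM, were the most abundant of them and were fitted at -0.448, -0.33 and -0.253 without B12. The list had no common direction, with 6 of the 11 fitted above 0 without B12 (median 0.038) and 5 with B12 (median -0.051). None of the 11 passed the threshold in either comparison. The part of these cell types in the levels of Wnt2, Sfrp1 and Sfrp2 was not tested.

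Across the 12 libraries, log2 CPM of Wnt2 and Sfrp1 had a Pearson correlation of -0.97, a description of points that share clones and groups. The genes whose log2 CPM followed Wnt2 most closely among 11943 genes compared were Apcdd1, with r = 0.988, Prx with 0.982, Psip1 with 0.981, Hspa12b with 0.975 and Ccdc74a with 0.974. Apcdd1 codes for a membrane protein that inhibits Wnt signalling, and Prx, periaxin, is best known from myelinating Schwann cells. Wnt4 and Sfrp2 had r = 0.82, Wnt5a and Wnt11 r = 0.81, and Wnt5a and Wnt16 r = -0.78.

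Some members differed between the clones in every group. Wnt16, a ligand best known from bone and from haematopoietic development, was at 20.2 to 26.7 CPM in the 4 libraries of clone 1, at 51.3 to 58.5 CPM in clone 2 and at 59.2 to 63.8 CPM in clone 3, with no overlap between clones. Wnt5a was at 99.6 to 111 CPM in clone 1, 60.5 to 74.2 CPM in clone 2 and 78.8 to 87.0 CPM in clone 3, again without overlap. The share of all genes that separate by clone in this way was not counted. Wnt5b was at 13.6 to 14.8 CPM in clone 3 and at 7.73 to 11.2 CPM in the 8 libraries of the other clones. Clone 1 was thus lowest in Wnt16 and highest in Wnt5a, and it also had the low Xist level and the later title year, which cannot be told apart with 1 embryo of that kind.

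The B12 comparisons asked whether B12 supplementation changed the Wnt ligands and antagonists, and 0 of the 10 members passed the threshold in edgeR's quasi-likelihood test. This held in OSKM, where 1.06% of all genes tested passed, in MEF, where 1.38% did, and for the average over both states, where 3.84% did. Without adjustment, 0, 2 and 1 of the 10 members had a p under 0.05 in these comparisons. The median log2 fold change over the members was -0.013 in OSKM, -0.105 in MEF and -0.088 on average, against -0.007, -0.015 and -0.013 over all genes tested. DESeq2 called 0 members in each of these comparisons too.

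Wnt5a was lower with B12 in 6 of 6 within-clone comparisons. Its log2 difference was -0.15, -0.19 and -0.017 in MEF of clones 1, 2 and 3 and -0.075, -0.090 and -0.14 in OSKM. The average effect was -0.11 ± 0.037 (adjusted p = 0.158 by edgeR), which did not pass the threshold. Being lower with B12 in 6 of 6 held for 2 of the 10 members (20%), Wnt2 and Wnt5a. It held for 15 of the 79 further pathway genes tested (19%) and for 7.64% of all genes tested. The fall was not particular to Wnt genes. In the average B12 effect 0 of the 11 fibroblast markers were fitted above 0, with a median of -0.106.

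Wnt11 was at 8.16, 5.74 and 7.47 CPM in MEF and at 6.98, 4.39 and 6.10 CPM in MEF+B12 for clones 1, 2 and 3. It was lower with B12 in 3 of 3 clones, by -0.22, -0.38 and -0.29, although the groups overlapped. The fitted effect was -0.30 ± 0.084 (adjusted p = 0.155 by edgeR). In induced cells it was at 6.33, 5.01 and 6.65 CPM in OSKM and at 7.19, 5.43 and 6.59 CPM in OSKM+B12, an effect of 0.093 ± 0.084 (adjusted p = 0.753 by edgeR). The interaction, which subtracts the B12 effect in uninduced cells from that in induced cells, was 0.39 ± 0.12 for Wnt11, with an adjusted p of 1 by edgeR. For the interaction 0 of the 10 members and 0% of all genes tested passed the threshold, with 1 member and 1.42% of all genes at an unadjusted p under 0.05, and DESeq2 also called 0 members.

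The other members differed less with B12 than the spread allowed to call. Wnt2 had an effect of -0.017 ± 0.21 in OSKM and -0.20 ± 0.22 in MEF, and was lower in 6 of 6 within-clone comparisons. Sfrp1 had -0.080 ± 0.11 and -0.071 ± 0.11, and Sfrp2 -0.13 ± 0.11 and -0.12 ± 0.11, in OSKM and MEF. The average effects of Wnt4, Wnt9a, Wnt5b and Wnt16 were -0.001 ± 0.10, -0.004 ± 0.065, -0.035 ± 0.078 and -0.061 ± 0.056. That of Wnt10b was -0.14 ± 0.23, the widest error of the 10. All 11 macrophage markers were higher with B12 in the average effect, and they summed to 1344 to 2590 CPM in MEF and 2030 to 3428 CPM in MEF+B12. The part of macrophages and fibroblasts in the B12 values of the members was not tested.

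The rest of the pathway was examined with 96 further genes in 8 lists, of which 79 passed the filter on low counts. None of the 79 passed the threshold of edgeR's test in either induction comparison, where 0.073% of all genes tested passed without B12 and 0.104% with B12. At an unadjusted p under 0.05 were 24 and 17 of the 79, and 19.0% and 14.9% of all genes tested. DESeq2 called 2 of the 79 without B12 and 4 with B12 (2.53% and 5.06%), beside 2.54% and 2.17% of all genes. Without clone 3 the edgeR counts were 13 and 10 of the 79 (16.5% and 12.7%), beside 6.87% and 5.22% of all genes in the same fits. The median log2 fold change over the 79 was -0.068 without and -0.032 with B12, against -0.008 and 0.002 over all genes tested.

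Of the 11 other Wnt ligands, Wnt2b, Wnt6 and Wnt10a passed the filter, and the other 8 had at most 12 counts in any library. Wnt2b was the most abundant of them at 2.13 to 4.75 CPM. The ligand profile of these cells was thus held by Wnt16, Wnt5a, Wnt9a, Wnt2, Wnt4 and Wnt5b. The median log2 fold change of the 3 with induction was 0.14 without B12 and -0.26 with B12. Wnt2b itself was lower in induced cells in 6 of 6 within-clone comparisons, a pattern whose share of all genes was not counted. Its fitted value was -0.48 ± 0.12 without B12 (adjusted p = 0.159 by edgeR).

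Of the 12 other secreted antagonists 7 passed the filter, and the response of Dkk3 and Sostdc1 to induction differed between clones. Dkk3, a Dickkopf family member whose action on Wnt signalling is debated, was at 205, 353 and 368 CPM in MEF and at 137, 253 and 355 CPM in OSKM for clones 1, 2 and 3. Its log2 difference was -0.58, -0.48 and -0.054 without B12 and -0.515, -0.507 and -0.079 with B12. The adjusted p of the difference between clones, from a fit over both media, was 0.0103 by edgeR. In this fit, used for all p values of clone differences, the libraries with and without B12 are the only repeats of a clone's induction. Such a p measures the spread of libraries within an embryo, not between repeated inductions. Sostdc1, a sclerostin-like antagonist of Wnt and BMP ligands, had log2 differences of 2.04, 1.39 and -0.43 without B12 and 2.42, 1.91 and 0.31 with B12 (adjusted p = 0.00325 by edgeR), on 36 to 308 counts. Dkk2 and Sfrp4 were at 67.0 to 117 and 22.3 to 29.7 CPM and had induction values of 0.085 ± 0.064 and 0.12 ± 0.064 without B12. Frzb, which codes for Sfrp3, was at 0.570 to 2.20 CPM with a value of -0.61 ± 0.20 (adjusted p = 0.171 by edgeR). Dkk1 had at most 4 counts and Sfrp5 had 0 counts in all libraries.

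All 8 genes for maturation and secretion were tested, and 0 passed the threshold in any of the 7 comparisons of edgeR. At most 2 of the 8 had an unadjusted p under 0.05, in induction without B12, where 19% of all genes did. Porcn, the acyltransferase Porcupine, was lower with induction in 6 of 6 within-clone comparisons, with values of -0.25 ± 0.073 and -0.23 ± 0.073 without and with B12 (adjusted p = 0.165 and 0.191 by edgeR). How many of all genes were lower in 6 of 6 with induction was not counted. Wls, the carrier Wntless, was at 246 to 367 CPM and had values of -0.14 ± 0.058 and -0.082 ± 0.058. Of the 20 receptors and coreceptors 19 were tested and 0 passed. At an unadjusted p under 0.05 were 8 of the 19 for the difference between clones, beside 14.8% of all genes. With induction 7 of the 19 were under it without B12, beside 19% of all genes, and 6 with B12, beside 14.9%. Lrp5 and Lrp6 had induction values of -0.11 ± 0.059 and -0.097 ± 0.078 without B12. Ror2 had -0.17 ± 0.056 (adjusted p = 0.170 by edgeR), with the smallest difference in clone 3.

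Among the R-spondins, secreted amplifiers of Wnt signalling, 3 of 4 were tested, and the response of Rspo3 differed between clones. It was at 33.3, 34.4 and 37.9 CPM in MEF and at 25.4, 24.9 and 36.7 CPM in OSKM for clones 1, 2 and 3 (adjusted p = 0.0338 by edgeR). All 16 cytoplasmic transducers were tested and 0 passed in any comparison. Ctnnb1, which codes for β-catenin, was at 614 to 934 CPM, with induction values of -0.059 ± 0.048 and -0.049 ± 0.048.

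The β-catenin target list gave no common direction. Of its 15 genes 13 were tested, and 0 passed in either induction comparison, with a median of -0.11 without and -0.032 with B12. Axin2, the most general target of the pathway, was at 11.01, 14.7 and 17.3 CPM in MEF and at 9.26, 13.46 and 14.96 CPM in OSKM, with values of -0.19 ± 0.072 and -0.12 ± 0.072 without and with B12 (adjusted p = 0.202 and 0.477 by edgeR). Nkd1, a feedback inhibitor, had -0.15 ± 0.083 and -0.11 ± 0.084, and Lef1 had at most 8 counts in a library. The response of 3 targets differed between clones. Apcdd1 was at 37.4, 23.6 and 24.9 CPM in MEF and at 60.7, 53.0 and 27.9 CPM in OSKM (adjusted p = 0.00125 by edgeR). Tnfrsf19, a receptor also called Troy, had log2 differences of -0.67, -0.57 and 0.27 in clones 1, 2 and 3 (adjusted p = 0.0178), and Ccnd1, which codes for cyclin D1, had 0.21, 0.47 and -0.007 (adjusted p = 0.0251).

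**Figure D4:**
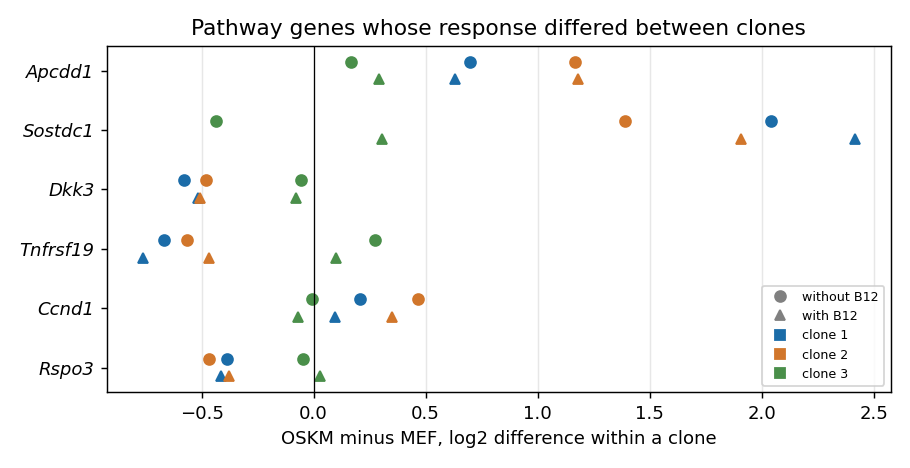
Log2 difference between induced and uninduced cells within each clone, without B12 (circles) and with B12 (triangles), for the 6 pathway genes whose response differed between clones. Apcdd1, Sostdc1 and Ccnd1 are higher in induced cells of clones 1 and 2, Dkk3, Tnfrsf19 and Rspo3 are lower there, and the points of clone 3 lie between -0.43 and 0.31.

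In all, the response of 6 of the 79 pathway genes tested (7.59%) differed between clones, beside 2.15% of all genes tested. Without clone 3 this count was 0, as it was over all genes (0%), and without clone 2 it was 3, beside 1.01% of all genes, with Dkk3, Sostdc1 and Tnfrsf19 past the threshold. With library totals in place of TMM, Rspo3 was no longer past it. The size of all 6 responses was smallest in clone 3, which also had the lowest Pou5f1 among the induced libraries. Differences between clones were not particular to this pathway. Myc and Sox2 passed too, with adjusted p of 0.000653 and 0.0156 by edgeR, while Pou5f1 and Klf4 did not. Several mesothelial and endothelial markers given above also passed. The pathway lists were chosen with earlier results of these data known.

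With B12, 1 of the 79 pathway genes (1.27%) passed the threshold in the average effect, below the 3.84% of all genes tested, and 0 passed in the other B12 comparisons. Daam2, a formin of the planar polarity branch, fell by 0.26 ± 0.062 on average over both states on the log2 scale (adjusted p = 0.0479 by edgeR). It was lower with B12 in 6 of 6 within-clone comparisons, by -0.15, -0.19 and -0.29 in MEF and -0.38, -0.094 and -0.43 in OSKM. The call was lost with library totals in place of TMM, without the clone block, without any one clone, with adjusted p from 0.112 to 0.453 by edgeR, and without the OSKM library of clone 1, with an adjusted p of 0.0575. Dkk2 was also lower in 6 of 6, with an average of -0.16 ± 0.045 (adjusted p = 0.0847 by edgeR).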

How the data were processed

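Poly(A) RNA of 12 libraries in 4 groups was measured. The authors made strand-specific libraries, aligned read pairs with STAR (2.5.2 per the labels) to mm10 (GRCm38) and counted pairs per gene with featureCounts. The authors deposited raw counts of pairs, summed over flow cells. Library totals were 56971244 to 79236795 counts.

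Symbols, coordinates and exon lengths came from GENCODE on GRCm38, which matched 55480 of 55573 identifiers. CPM and log2 CPM (prior count 2) used TMM factors of 0.934 to 1.06. The main test was edgeR 4.0.16 (quasi-likelihood, filterByExpr, terms group and clone) over 19174 genes with Benjamini-Hochberg adjustment and a threshold of 0.05. A second fit over both media tested clone by state terms, with B12 within state as a further term. Each embryo gave 1 library of every group, so clone was a block. Libraries of a clone deviated together (correlations 0.27 to 0.687 over 18 pairs) and those of different clones and groups had at most 0.17 over 36 pairs. No 2 libraries were identical. On simulated counts with added B12 changes larger than the B12 effects of the members, the fit of the average B12 effect recovered known changes. Smaller changes and the other comparisons were not scored.

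Members and lists were chosen with earlier results of these data known. Named beyond the members are listed pathway genes of key roles, up to 4 genes past the threshold per list and comparison, and the 5 genes most like Wnt2. Alternatives were DESeq2 1.42.0, other scalings and filters, only the libraries compared, no block, and leaving out each clone or the OSKM library of clone 1.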

Additional observations from a re-analysis of the deposited data

Results flagged for a closer look

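The response to induction differed between the 3 clones, by an F test of the difference itself in edgeR, for 6 genes of the pathway lists. The adjusted p was 0.00125 for Apcdd1, 0.00325 for Sostdc1, 0.0103 for Dkk3, 0.0178 for Tnfrsf19, 0.0251 for Ccnd1 and 0.0338 for Rspo3. Libraries with and without B12 were the only repeats of a clone's induction. These p values thus measure the spread within an embryo, not between repeated inductions. Without clone 3, 0 pathway genes passed.

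Wnt11 was lower in induced than in uninduced cells in 3 of 3 clones without B12 and higher in 3 of 3 with B12. The difference between these responses was 0.389 on the log2 scale, and by edgeR's interaction test its adjusted p was 1.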

How the results depend on the processing

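Calls of pathway genes depended on the test, the filter and clone 3. In the induction comparisons 0 passed the threshold without and with B12, against 2 and 4 in DESeq2 and 4 and 5 without a filter, and leaving out libraries gave 0 to 13 and 0 to 10. Of all genes tested, the shares passing were 2.54% and 2.17% in DESeq2 and 2.06% and 1.95% without a filter. For the difference between clones, the 6 pathway genes became 11 without a filter, beside 3.8% of all genes, and ranged from 0 to 9 with libraries left out. The count was 9 without clone 1 and without the OSKM library of clone 1, beside 3.79% and 4.3% of all genes. For B12 in MEF, 2 of 77 pathway genes (2.6%) passed in a fit of only the libraries compared, Tcf7l1 and Ccnd1, beside 4.58% of all genes. For the average B12 effect, the 1 pathway gene became 2 in DESeq2, beside 4.87% of all genes, and 0 with library totals, beside 4.59%. It became 0 without the replicate block and ranged from 0 to 2 with libraries left out. The 2 came without the OSKM library of clone 1, beside 4.03% of all genes. Over all genes without the block, 90 passed for the average B12 effect and 0 in the other comparisons of groups. Without the block, 0 members passed in a B12 comparison, as with it. The causes were not tested. B12 called 0 members under all alternatives run.

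Values near 0 changed sign for members that were not called. For B12 in OSKM they were 0.008 for Wnt16 with library totals and -0.014 for Wnt4 without the replicate block. For B12 in MEF Wnt4 was 0.024 with library totals. For the average, Wnt4 was 0.001 in DESeq2, 0.025 with library totals and 0 with at least 10 counts in every library, and Wnt9a was 0.019 with library totals. With libraries left out, the range for B12 in OSKM was Wnt2 -0.026 to 0.041, Wnt4 -0.105 to 0.119, Wnt5b -0.11 to 0.115, Wnt9a -0.042 to 0.126 and Wnt16 -0.087 to 0.052. With libraries left out, the range for B12 in MEF was Wnt4 -0.12 to 0.062 and Wnt10b -0.072 to 0.461. With libraries left out, the range for the average B12 effect was Wnt4 -0.112 to 0.091 and Wnt9a -0.056 to 0.034.
Counts limit Wnt10b most, with 6 to 43 per library.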
